A study of Mus musculus with 4 samples.

Results

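Cish, Socs1, Socs2, Socs3 and Socs5, which encode inhibitors of cytokine signalling, and Stat5a and Stat5b, which encode the factor that carries many cytokine signals to the nucleus, were examined in naive CD8 T cells of Klf13 knockout and wild-type mice as a readout of cytokine signalling. The 7 genes were chosen by name, all were measured, and each was read from the probe set that carries its symbol alone and has the highest mean over the arrays; 19938 genes were tested in all. The cells were sorted by flow cytometry from the spleen of BALB/c mice, labelled KLF13 KO (2 arrays) or wild type (2 arrays), with no treatment and no age given, and the RNA of each sample was hybridised to its own array. The sources used here do not say which cells carry the deletion, which part of the gene was removed, or whether the arrays of a genotype represent different mice, so the p-values may reflect technical spread alone.

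Cytokines such as IL-2, IL-7 and IL-15 bind receptors that carry JAK kinases. The kinases phosphorylate the receptor and STAT5, and STAT5 enters the nucleus and switches on target genes. Cish and several Socs genes are among these targets, and their proteins feed back on the pathway: the protein of Cish occupies receptor sites where STAT5 would dock, those of Socs1 and Socs3 inhibit the JAK kinases directly, and all carry a SOCS box that recruits a ubiquitin ligase. In CD8 T cells these cytokines sustain naive and memory cells, and transcripts of the feedback genes are commonly used to read how strongly the pathway is engaged.

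Klf13 transcripts were lower in the knockout, with log2 values of 5.46 and 5.43 against 7.01 and 7.15 (difference -1.63, SE 0.10, limma adjusted p = 3.75e-05), although a probe set outside the deleted part would check nothing. The defining markers of the labelled cell type were bright in every array: Cd8a had group means of 11.1 in the knockout and 11.2 in the wild type, Cd8b1 of 10.9 in both and Cd3e of 9.53 and 9.47, while Cd4 had means of 3.77 and 3.84. Of 9 measured CD8 T cell markers 0 passed limma's test in either direction, with 1 at an unadjusted p under 0.05. Their summed log2 values were lower in the knockout, at 87.0 to 87.6 against 88.0 to 88.1, and 7 of the 9 had a lower mean there, Thy1 most (-0.34); after a further quantile normalization 5 of the 9 had a higher mean.

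Promoter windows from RefSeq on GRCm38.p6, covering 250 bases before to 50 bases after an annotated start, were matched by symbol for 5 of the 7 genes; Socs2 and Socs5 had no entry. The windows were searched on both strands for TTCNNNGAA, the core that STAT factors, STAT5 among them, are known to bind, which reads the same on either strand. Of 32851 windows, 8.3% held these letters at least once and 0.457% held 2 or more matches. The stretch of Cish (chr9:107296539-107296683, plus strand, position -120 to 25 from the start) is shown because Cish is the gene that rose, and that of Socs3 (chr11:117969487-117969545, minus strand, position -179 to -121) because it holds the only match outside Cish among the members' windows; capitals mark the matches.
Cish: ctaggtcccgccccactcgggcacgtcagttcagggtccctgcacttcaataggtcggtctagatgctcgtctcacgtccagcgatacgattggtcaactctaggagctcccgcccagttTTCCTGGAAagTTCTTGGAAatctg
Socs3: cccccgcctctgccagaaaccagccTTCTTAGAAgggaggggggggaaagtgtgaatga

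The Cish window held 2 matches, at positions 1 to 9 and 12 to 20 counted from the annotated start, 2 bases apart. Socs3 held 1 match at -154 to -146, and 0 matches were found in the window of Socs1 or in the windows of Stat5a (2 windows) and Stat5b (2 windows), which says only that these letters are not in those 300-base stretches. The GC box GGGCGG, a sequence that SP and KLF factors are known to bind, was present on either strand in 35.7% of all windows. The windows of Cish, Socs1 and Socs3 each held 2 matches to it, and Stat5a and Stat5b held 2 and 3 in 1 of their 2 windows. CACCC, another KLF-type box, was present on either strand in 57.5% of all windows, with 1 match in Cish, 2 in Socs1, 1 in Socs3, and 2 and 1 in the same windows of Stat5a and Stat5b.

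The paralogs Stat5a and Stat5b lie on the same chromosome, and the longest run shared by their windows was 16 bases, in capitals below, close to an annotated start of each gene. Over the 56 bases printed for each, 48 were the same. The stretches are Stat5a chr11:100860432-100860487 on the plus strand and Stat5b chr11:100822558-100822613 on the minus strand, shown because the 2 genes are so alike.
Stat5a: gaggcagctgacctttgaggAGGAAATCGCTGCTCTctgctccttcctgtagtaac
Stat5b: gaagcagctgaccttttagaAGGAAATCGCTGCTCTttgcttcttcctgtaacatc

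Cish was the member that rose in the knockout. Its log2 values were 5.51 and 5.51 in the knockout and 4.96 and 5.04 in the wild type. Both knockout arrays lay above both wild-type arrays, with a gap of 0.46 between the groups and 0.09 between the wild-type arrays. The group means of 5.51 ± 0.0014 and 4.999 ± 0.062 (SD, n = 2) differed 1.42-fold (log2 fold change 0.51, SE 0.09, 95% interval 0.30 to 0.71, limma adjusted p = 0.0218), which placed Cish at rank 236 of 19938 genes by p and at rank 200 by size of rise. In sorted bulk cells, a change in the share of a cell type and a change in RNA per cell cannot be told apart.

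The call of Cish did not hold in every setting. It was lost when every one of 35556 probe sets was tested singly (limma adjusted p = 0.148), without knockout replicate 1 (0.0626) and without wild-type replicate 1 (0.201, in a fit that gave every gene the same SE of 0.166). Over all 11 alternatives the log2 fold change lay between 0.42 and 0.55. Only a further quantile normalization (0.49) and median centring (0.42) could have turned its sign. The other alternatives left the value unchanged or left out a single array, which cannot turn the sign of groups that do not overlap.

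**Figure D1:**
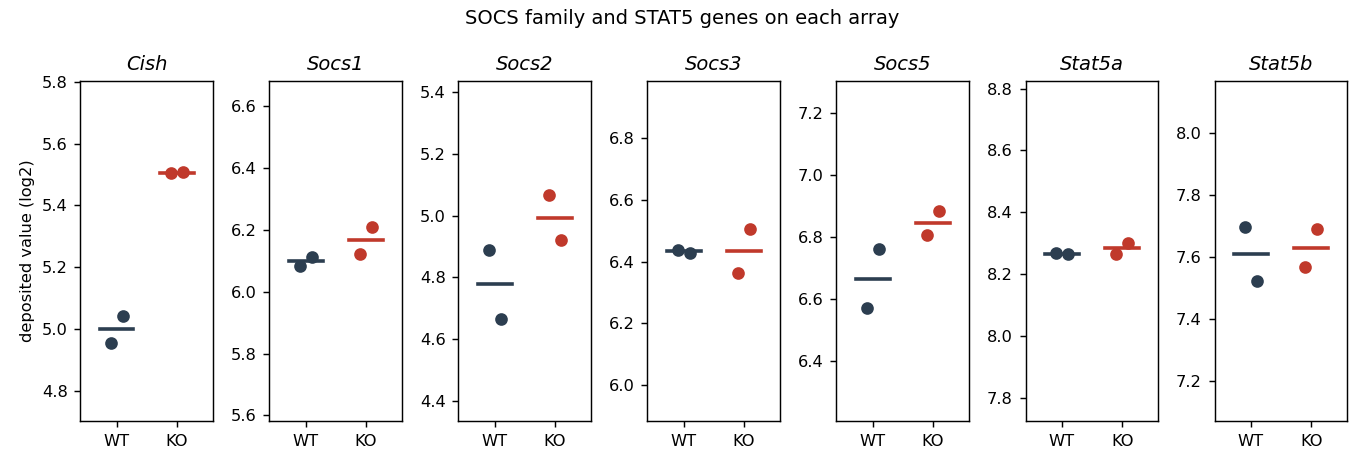
Deposited log2 values of the 7 genes on each array, wild type (WT, dark) and knockout (KO, red), with a bar at each group mean; every panel spans the same range of log2 units, but levels of different genes are not comparable. The knockout arrays of Cish (5.51 and 5.51) lie well above the wild-type arrays (4.96 and 5.04), while the groups of Socs3, Stat5a and Stat5b overlap.

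Among the SOCS proteins that inhibit JAK kinases directly, neither gene passed the test. Socs1 stood at 6.12 and 6.21 in the knockout and 6.08 and 6.11 in the wild type, so that the knockout arrays lay above the wild-type arrays by a margin of 0.0097 only. Its log2 fold change was 0.07 (95% interval -0.14 to 0.27, limma adjusted p = 0.768). Socs3, the main brake on receptors that signal through gp130, stood at 6.36 and 6.51 in the knockout, on either side of the wild-type values of 6.44 and 6.43. Its log2 fold change was 0.0024 (95% interval -0.21 to 0.22, limma adjusted p = 0.994), and a dimmer Socs3 probe set gave 0.03.

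Socs2, a STAT5 target best known for limiting growth hormone signalling, had values of 5.07 and 4.92 in the knockout and 4.89 and 4.67 in the wild type. The groups did not overlap, but lay only 0.03 apart while the wild-type arrays differed more than that from each other. The log2 fold change was 0.22 (95% interval -0.03 to 0.46, limma adjusted p = 0.361), and ranged from 0.10 to 0.33 when single arrays were left out. A second, dimmer Socs2 probe set read 4.34 and 4.77 in the knockout and 4.13 and 4.12 in the wild type. It gave a log2 fold change of 0.43 (SE 0.16, 95% interval 0.01 to 0.84) and did not pass either when every probe set was tested (limma adjusted p = 0.385).

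Socs5, which has been tied to inhibition of the IL-4 receptor, read 6.81 and 6.88 in the knockout and 6.57 and 6.76 in the wild type. The knockout arrays lay above the wild-type arrays by 0.04, less than the distance between the wild-type arrays, and the log2 fold change of 0.18 did not pass (95% interval -0.05 to 0.40, limma adjusted p = 0.426). It ranged from 0.08 without wild-type replicate 1 to 0.27 without wild-type replicate 2.

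Both STAT5 genes had overlapping groups. Stat5a read 8.27 and 8.30 in the knockout and 8.27 and 8.26 in the wild type, with a log2 fold change of 0.017 (95% interval -0.18 to 0.22, limma adjusted p = 0.948). Stat5b read 7.57 and 7.69 in the knockout and 7.70 and 7.52 in the wild type, with a log2 fold change of 0.017 (95% interval -0.21 to 0.24, limma adjusted p = 0.954). Transcript levels say nothing of how much STAT5 protein was phosphorylated, which was not measured on these arrays.

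**Figure D2:**
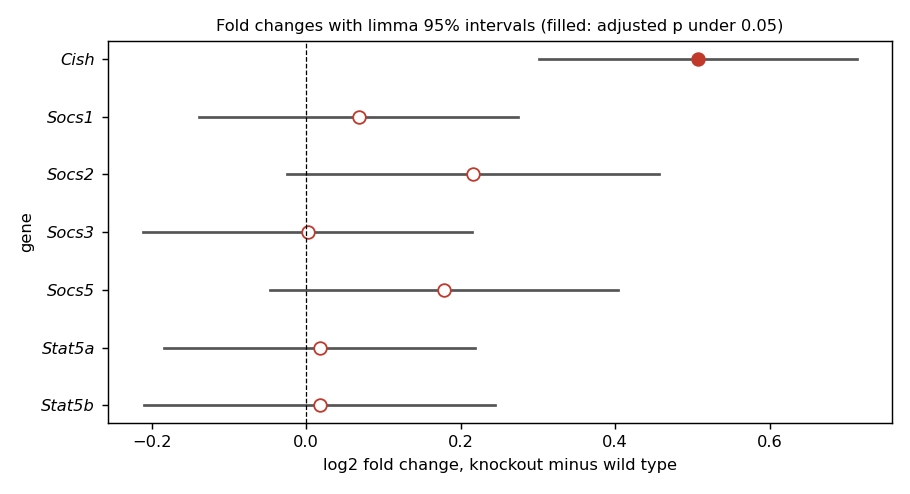
Log2 fold changes (x axis, knockout minus wild type) of the 7 genes with limma 95% intervals as lines; a filled point marks a limma adjusted p under 0.05. The interval of Cish starts at 0.30, above the upper bounds of Socs1 (0.27), Socs3 (0.22), Stat5a (0.22) and Stat5b (0.24) but within the intervals of Socs2 and Socs5.

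Of the 7 genes, 1 passed the limma test at an adjusted p under 0.05, where 2.25% of all genes tested did so in either direction, 1.19% upwards and 1.05% downwards. The same gene was the only member at an unadjusted p under 0.05, a limit passed by 16.6% of all genes. Both knockout arrays lay above both wild-type arrays for 4 of the 7, Cish, Socs1, Socs2 and Socs5, and below them for 0, where 24.4% of all genes lay above and 23.2% below in this way, 47.6% together. All 7 had a higher mean in the knockout, as did 10781 of the 19938 genes, though Socs3, Stat5a and Stat5b by 0.0024, 0.017 and 0.017 only. Their median log2 fold change was 0.07, against 0.02 over all genes. Over all genes in the level range of the SOCS family members the median was -0.04, and in that of the STAT5 members -0.08. After centring each array on its median, Socs1, Socs3, Stat5a and Stat5b had lower means. Whether the change of Cish differed from that of the other members was not tested.

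**Figure D3:**
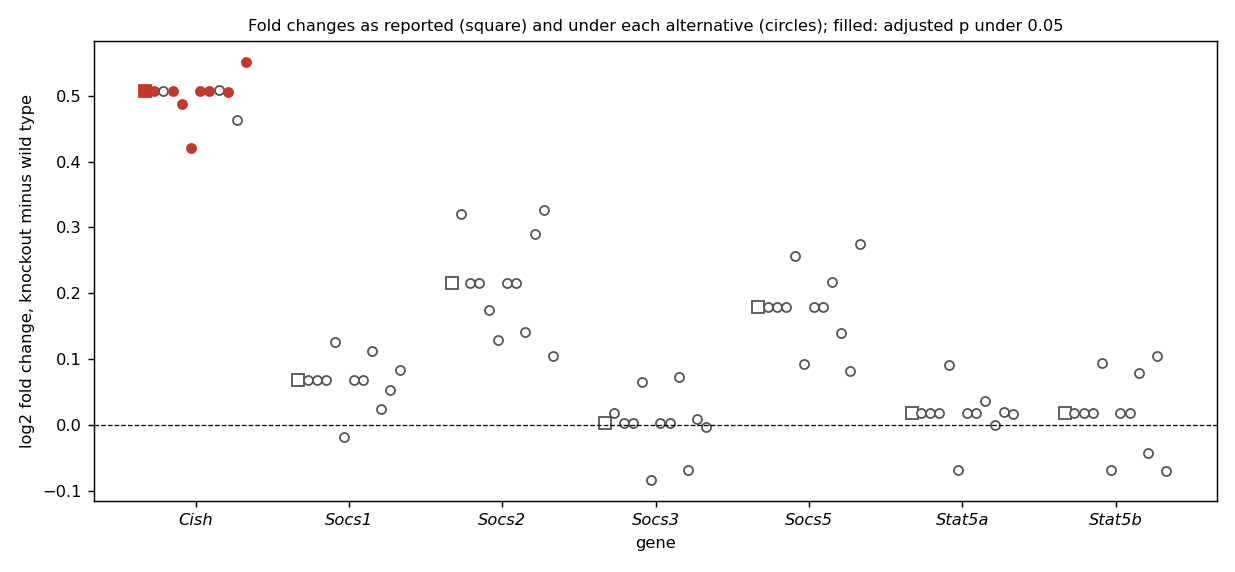
Log2 fold changes (y axis, knockout minus wild type) of the 7 genes as reported (squares) and under each of 11 alternatives (circles), filled where the limma adjusted p was under 0.05. Cish stays between 0.42 and 0.55 and is filled in 8 of the 11 alternatives, while Socs3 ranges from -0.08 to 0.07.

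The genes with the array profile nearest to that of Cish, by Euclidean distance between mean-centred log2 values over the 4 arrays among 17330 named genes, were Rnase6, a ribonuclease gene (distance 0.028), Grn, which encodes progranulin (0.030), and Cd244a, which encodes a receptor of NK cells and CD8 T cells (0.043). Their log2 fold changes were 0.49, 0.53 and 0.55. With 4 arrays in 2 groups, such likeness says little beyond a rise of like size with like spread.

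Markers of other cell types moved on the same arrays. Of 12 myeloid and dendritic cell markers 5 rose (Lyz2, Flt3, Csf1r, Mpeg1 and Tyrobp) and 0 fell, with summed log2 values of 56.2 to 57.8 in the knockout and 51.8 to 52.3 in the wild type. Cd68 was the 1 with a lower mean in the knockout (-0.34), without overlap, and did not pass. Adgre1 and Zbtb46 differed by 0.09 and 0.04. Of 12 neutrophil markers 4 rose and 0 fell, with sums of 56.1 to 56.7 against 47.8 to 48.8. The 4 were Mpo (log2 fold change 1.965), Prtn3 (1.713), Ctsg (1.698) and Elane (1.597). The 8 that did not pass differed by -0.12 (Ly6g) to 0.33 (Ngp). Their group means ran from 2.59 to 4.02, all below the median of all probe sets (4.31 to 4.37 on the 4 arrays). Ly6g (means 2.59 and 2.71) and Mmp8 (2.65 and 2.68) had lower means in the knockout. Of 10 measured B cell markers 2 rose (Ighm and Cd74) and 0 fell (54.7 to 55.1 against 51.7 to 52.6), and Ms4a1 differed by 0.0097.

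Of 8 regulatory T cell markers, a cell type in which STAT5 signalling is strong, 2 rose (Gpr83 and Ikzf2) and 0 fell, with sums of 41.4 to 43.1 against 39.5 to 40.5, while their defining factor Foxp3 had means of 4.498 and 4.32 and did not pass (limma adjusted p = 0.650). Means were higher in the knockout for 6 of the 8 and lower for Ctla4 (-0.33) and Tnfrsf4 (-0.20), neither of which passed. Of 10 NK cell markers 2 rose (Cd244a and Tyrobp) and 1 fell (Eomes; sums 40.5 to 41.7 against 40.6 to 41.1). Eomes was bright, with means of 6.67 in the knockout and 8.12 in the wild type. Ncr1 (3.98 and 3.56) and Klrb1c (2.57 and 2.35) were dim, with higher means in the knockout that did not pass. Of the 10, 6 had a higher mean in the knockout and 4 a lower one. Of 6 CD4 T cell markers 1 rose (St8sia6) and 2 fell (Cxcr5 and Tnfsf8; 28.9 to 29.1 against 29.6 to 29.7), and of 6 measured erythroid and platelet markers 2 rose (Itga2b and Pf4) and 0 fell (34.1 to 34.8 against 33.2 to 33.6). The 2 that rose are platelet genes. The erythroid genes Epb42 (-0.31) and Klf1 (-0.14) had lower knockout means without overlap and did not pass, and Alas2 differed by 0.05. The sums of CD8 T cell markers were, as given above, 87.0 to 87.6 against 88.0 to 88.1. The part of these cell types in the rise of Cish was not tested.

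The remaining genes of the pathway, 86 measured genes in 7 lists by role, gave 4 falls and 0 rises in the limma test, with 19 at an unadjusted p under 0.05 and a median log2 fold change of 0.0010. The 4 were Il10ra, Stat4, Gzmb and Prf1. Of all genes tested, 1.05% fell, 1.19% rose and 16.6% had an unadjusted p under 0.05. The counts of each list below stand against the same shares.

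Of 10 genes for other SOCS proteins and for subunits of the ubiquitin ligases that SOCS boxes recruit, 0 rose and 0 fell in the limma test, with 1 at an unadjusted p under 0.05. That gene was Rbx1, a RING subunit of cullin ligases (-0.34, limma adjusted p = 0.120; -0.20 when its probe sets were averaged). It passed in 3 of the 11 alternatives: after median centring (0.0301), with trend and robust moderation (0.0221) and without knockout replicate 2 (0.0470). In the fit as reported, the scaffold gene Cul2 differed by -0.20, and Socs6, Socs4 and Socs7 by 0.14, -0.08 and 0.04. Socs6 differed by 0.065 when its probe sets were averaged. The sign of Socs4 turned after a further quantile normalization and that of Socs7 after median centring.

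Upstream, 16 cytokine genes gave 0 rises and 0 falls in the limma test, with 1 at an unadjusted p under 0.05. Their means were higher in the knockout for 15 of the 16, with a median of 0.13, where the median of the 11887 genes in the same range of level was 0.06; after a further quantile normalization the count was 13 and the median 0.049, and after median centring they were 11 and 0.045. Mean levels in this list ran from 2.12 to 5.64, where the median of all probe sets was 4.31 to 4.37 on the 4 arrays. Tslp (means 2.75 and 2.53) and Lif (3.52 and 3.34) lay below that median, Il27 (5.02 and 4.60) above it. How far such values lay above background is not known here. Il27 (0.42, limma adjusted p = 0.109), Tslp (0.23) and Lif (0.18) had the smallest p, and Il27 passed in 2 of the 11 alternatives, with the replicate block (0.00856) and without knockout replicate 2 (0.0381).

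Of 23 measured receptor chains, 1 fell and 0 rose, and 10 had an unadjusted p under 0.05. Il10ra, the ligand-binding chain of the IL-10 receptor, read 5.28 and 5.45 in the knockout and 5.82 and 5.84 in the wild type (log2 fold change -0.46, SE 0.10, limma adjusted p = 0.0411). Its groups did not overlap, but the call was lost with every probe set tested singly (0.204), without knockout replicate 1 (0.110) and without either wild-type array (0.176 and 0.184). The TSLP receptor chain Crlf2 (0.45, limma adjusted p = 0.0672) and the interferon-gamma receptor chain Ifngr2 (0.42, 0.0733) did not pass in this fit, but each passed in 4 of the 11 alternatives, with adjusted p ranging from 0.00359 to 0.560 and from 0.00877 to 0.541. Several chains receive the cytokines best known to engage STAT5 in CD8 T cells. Of these, Il7r differed by -0.35 (limma adjusted p = 0.0935) and Il15ra by -0.18 (limma adjusted p = 0.365). Il2ra differed by 0.38 (limma adjusted p = 0.162) and Il2rb by -0.0071 (0.981, of unsettled sign). Il7r passed in 5 of the 11 alternatives (adjusted p from 3.22e-04 to 0.571), the replicate block among them (0.0425), and Il2ra with the replicate block alone (0.0230).

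Among the signal carriers, the 3 measured JAK kinase genes gave 0 calls in the limma test and 0 at an unadjusted p under 0.05: Jak1 differed by -0.08, Jak2 by 0.05 and Tyk2 by -0.04, the sign of Jak2 turning after median centring and that of Tyk2 after a further quantile normalization. Of the 4 other STAT genes measured, Stat4, which relays IL-12, fell and the others did not pass. Stat4 read 9.22 and 9.17 in the knockout and 9.63 and 9.58 in the wild type, without overlap (log2 fold change -0.42, SE 0.09, limma adjusted p = 0.0493). That call was lost after a further quantile normalization (0.0994), with every probe set tested singly (0.194), without knockout replicate 1 (0.0815) and without either wild-type array (0.440 and 0.218). Stat2 and Stat6 differed by -0.26 and -0.14; Stat2 was -0.08 without knockout replicate 1, and -0.44 without knockout replicate 2, where it passed (0.0448).

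Of 15 other negative regulators, 0 passed the limma test and 3 had an unadjusted p under 0.05, and the list median was -0.08 (0.0037 after a further quantile normalization). Pias3, an inhibitor of STAT3, differed by 0.39 (limma adjusted p = 0.0947, and under the threshold in 2 of the 11 alternatives), Usp18, which restrains type I interferon receptors, by -0.26, and Ptpn2, a phosphatase of JAK kinases and STAT factors, by -0.22.

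Of 19 genes known to respond to STAT5 in T cells, 2 fell and 0 rose, with 5 at an unadjusted p under 0.05 and a median of 0.0080 that was -0.08 after median centring. The list was not split into genes that STAT5 induces and genes it represses, so these counts and this median do not read the direction of signalling. Gzmb, the granzyme B gene, read 5.48 and 5.60 in the knockout and 6.56 and 6.44 in the wild type (log2 fold change -0.96, SE 0.10, limma adjusted p = 8.17e-04). Prf1, the perforin gene, read 7.01 and 7.33 against 8.13 and 8.005 (log2 fold change -0.89, SE 0.12, limma adjusted p = 0.00434). The knockout arrays lay below the wild-type arrays for both genes, opposite to Cish; of the 11 alternatives, both calls were lost only with every probe set tested singly (0.0761 and 0.128). Pim1, a kinase gene that STAT5 induces, differed by 0.0080, and the survival gene Bcl2 by 0.15 (limma adjusted p = 0.979 and 0.506), the sign of Pim1 turning after median centring. The STAT5 letters were found in a window of 5 of the 16 listed genes that had one (Lta, Foxp3, Gzmb, Bcl6 and Il7r), or 31.2%. The share was 9.55% of all genes with a window. It was 66.7% for the SOCS family members (2 of 3), 28.6% for regulatory T cell markers, 26.3% for receptor chains and 22.2% for cytokine genes. CD8 T cell markers had 14.3%, erythroid and platelet markers 12.5%, myeloid and dendritic cell markers 11.1% and neutrophil markers 8.33%. All remaining lists had 0: the STAT5 members, other SOCS genes and partners, JAK kinases, other STAT factors and other negative regulators, and the CD4 T cell, B cell and NK cell markers.

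**Figure D4:**
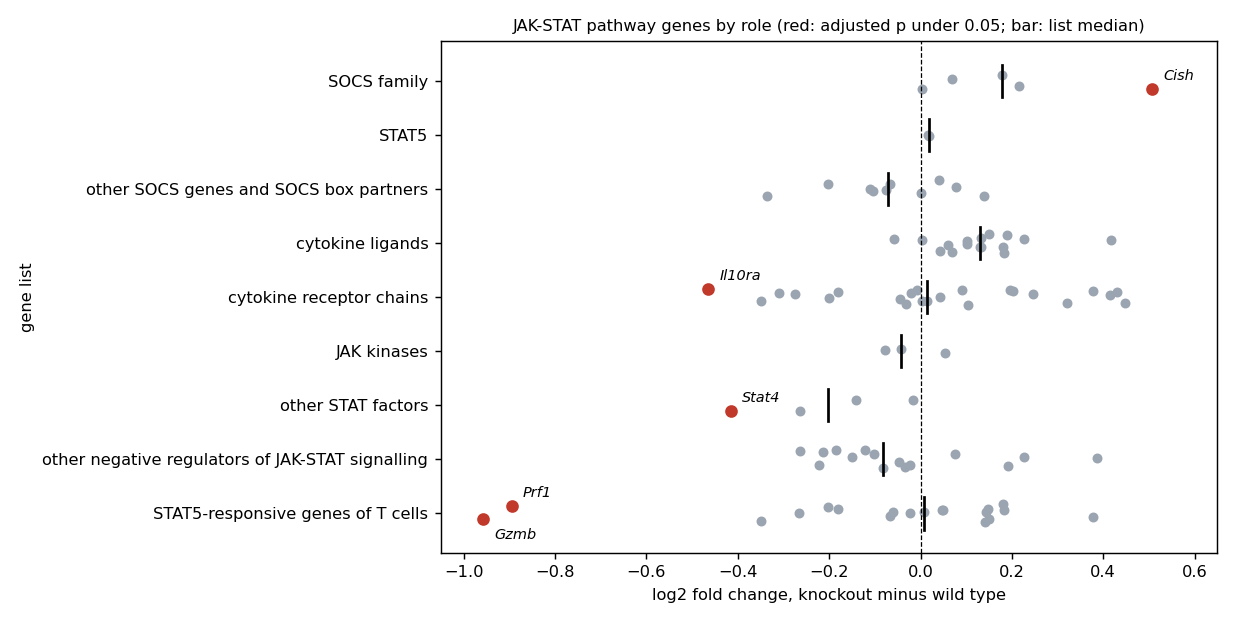
Log2 fold changes (x axis, knockout minus wild type) of the members and of 7 lists of JAK-STAT pathway genes by role; each point is a gene, red where the limma adjusted p was under 0.05, and the black bar is the list median. Cish is the red point to the right of 0, and Il10ra, Stat4, Gzmb and Prf1 are those to the left.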

How the data were processed

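Transcripts were measured on 4 one-colour Affymetrix arrays. The values deposited by the authors are log2 probe-set values (1.34 to 13.5), and the submitters' processing notes name the tools RMA and Partek without a version; RMA makes the distributions of arrays alike and compresses folds of dim genes. No detection calls, scan dates or genome build are given in the sources used here, and the number of arrays limits the precision. Of 35556 probe sets, GEO's annotation paired 21789 with 1 symbol, 1621 with several and 12146 with none listed; outdated symbols were replaced by those of RefSeq (GRCm38.p6) where the gene identifier matched (21698). Groups were compared with lmFit and eBayes of limma 3.58.1 (R 4.3.3) in a model with genotype alone, by two-sided tests with Benjamini-Hochberg adjustment over all 19938 genes and a threshold of 0.05, and the fit was tested on simulated data. The prior degrees of freedom were 8.06.

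Members and lists were chosen with earlier results of these data known, so lists were only counted. Named were the members, Klf13 and the defining markers, the genes that passed in each pathway list and up to 3 with the smallest p, and the 3 profiles nearest to a member that passed. Marker genes, Socs4, Socs7, Il2ra, Il2rb, Il15ra, Pim1, Bcl2 and the second probe sets were named after their values were seen. Alternatives were averaging the probe sets of a gene, all probe sets singly, the 9969 genes with the higher means, a further quantile normalization, median centring, robust moderation with a variance trend, a block for replicate number, and each array left out.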

Additional observations from a re-analysis of the deposited data

How the results depend on the processing

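Cish, Socs2 and Socs5 kept their direction in all 11 alternatives, but most of these could not have turned it. Single probe sets, the genes with the higher means, robust moderation and the replicate block leave the log2 fold change as reported. Averaging does so too for Cish and Socs5, and both Socs2 probe sets had groups without overlap. Leaving out a single array cannot turn the sign where the groups do not overlap. Without single arrays Socs2 ranged from 0.10 to 0.33 and Socs5 from 0.082 to 0.27. The call of Cish (0.51) was lost with every probe set tested singly, where 0 members and 0 pathway genes passed, and the number of calls over all rows fell from 448 to 39; without single arrays the log2 fold change of Cish ranged from 0.46 to 0.55, the number of members that passed from 0 to 1, that of pathway genes from 2 to 11 (4 with all arrays) and that of all genes from 264 to 1536. Without knockout replicate 1 the counts were 264 genes and 2 pathway genes, without knockout replicate 2 they were 1536 and 11, without wild-type replicate 1 they were 277 and 2, and without wild-type replicate 2 they were 378 and 2. Median centring gave 1088 calls and 7 pathway genes, with 21.8% of the calls upwards in place of 53.1%; trend with robust moderation gave 831 calls and 9 pathway genes, and the genes with the higher means gave 8 pathway genes. Centring reversed Socs1 (-0.018), Socs3 (-0.084), Stat5a (-0.069), Stat5b (-0.069), Jak2 (-0.032), Socs7 (-0.045), Pim1 (-0.078) and Cd3e (-0.019); a further quantile normalization reversed Tyk2 (0.029), Socs4 (0.0058), Il2rb (0.069) and Cd8b1 (0.0060). Leaving out single arrays gave ranges across 0 for Socs3 (-0.069 to 0.073), Stat5a (-0.00075 to 0.036), Stat5b (-0.070 to 0.10), Tyk2 (-0.14 to 0.058), Il2rb (-0.074 to 0.060), Pim1 (-0.081 to 0.097), Cd8b1 (-0.063 to 0.040) and Cd4 (-0.36 to 0.23). Median centring takes 1 constant from each array, so it lowered every log2 fold change by the same amount. Cish moved from 0.51 to 0.42, and the median over all genes from 0.015 to -0.0711. Genes with a rise smaller than that amount therefore had to reverse. The cause of the other changes was not tested. Without a knockout array, the spread came from the wild-type pair and the lone knockout array was assumed to share it; without either wild-type array, the fit gave every gene 1 common variance (SE 0.166), so a gene's own spread had no weight there. No detection calls were used, so how far each value lay above background is not known here.

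With the replicate number as a block, 1187 genes, 11 pathway genes and 1 member passed (Cish 0.51, limma adjusted p = 5.36e-04). This fit, too, gave every gene 1 common variance (SE 0.115), unlike the fit as reported, so its counts and p-values are not comparable gene by gene with the others. The numbers share no stated source, and deviations of same-numbered arrays correlated across genes with r = 0.0074. With 1 difference per genotype, this value cannot decide whether same-numbered samples were paired.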
